A study of Homo sapiens with 9 samples.

Results

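The CD-numbered surface antigens were examined in HEL, a human erythroleukemia cell line with erythroid and megakaryocytic features. They were taken as the protein-coding genes whose symbol in the GENCODE annotation of hg19 is CD followed by digits and at most 1 letter, such as CD44 or CD79A. The rule gave 77 of 20157 protein-coding genes, and no measured value entered it. CD antigens with other symbols, such as BSG (CD147), and genes renamed since, such as CD97, were outside it.

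The mark measured was H3K4me3, trimethylation of lysine 4 on histone H3, mapped by CUT&RUN, in which a nuclease tethered by an antibody cuts out the marked chromatin for sequencing. There were 9 libraries in 4 groups: cells that received a non-targeting control guide (NTC, 3 libraries), and cells with a CRISPR knockout of METTL3 (METTL3-KO, 2 libraries), of METTL14 (METTL14-KO, 2 libraries) or of WTAP (WTAP-KO, 2 libraries), 3 subunits of the methyltransferase complex that places N6-methyladenosine on mRNA. All were HEL cells grown in the same medium, and the comparisons asked what became of the promoter mark without each subunit. Nothing in the labels says that libraries of a group came from separate cultures, so p-values measure the spread between these libraries, which may be technical.

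CD numbers are given to leukocyte surface molecules by the antibodies that recognise them, not by structure or function, so the genes include receptors, adhesion molecules, tetraspanins, enzymes and complement regulators. Many are used to tell blood lineages apart: CD79A and CD79B for B cells, CD3 and CD8 chains for T cells, CD14 for monocytes, CD34 for progenitors. H3K4me3 is laid down around the start sites of active and poised genes and is strongest at promoters rich in CG dinucleotides.

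Each library was represented by a list of called peaks with a signal in coverage units calibrated to a yeast spike-in, and marked genes were those with a peak no more than 1 kb from an annotated start, whichever start it was. Its promoter signal was that of the strongest such peak, and 0 where there was none. The lists hold only peaks from 150 to 2000 bp wide, so a gene without a call may still carry the mark, in a wider block or below the threshold. The fragments behind each library are unknown. The lowest signal was 30.1 to 32.0 in all 9 libraries, but it stood for 24 to 28 times the smallest step between values in NTC and for 30 to 94 times in the KO libraries, and the part of this in the results was not tested. Of 10 erythroid and megakaryocytic marker genes, 6 (GATA1, KLF1, TAL1, EPOR, GFI1B and LMO2) had a promoter peak in all 3 NTC libraries and the other 4 in some, whereas CD3E, CD14 and SPI1 had none in NTC.

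In NTC cells the mark was found at a minority of the CD-numbered genes. A promoter peak was called at 27, 28 and 29 of the 77 genes in NTC 1, 2 and 3, or 35.1%, 36.4% and 37.7%, against 46.8% to 47.9% of all protein-coding genes. In all 3 NTC libraries together 23 of 77 genes (29.9%) were marked, where 42.1% of all genes were. Of the other genes, 9 were marked in 1 or 2 NTC libraries, 9 only in KO libraries and 36 in no library.

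The genes marked in all 3 NTC libraries came from every lineage list, and 4 of the 23 were from the progenitor, erythroid and megakaryocytic list. Of the B cell antigens 6 of 10 were marked in all 3 NTC libraries, among them CD37, CD40, CD70, CD72 and CD79B. Of the T and NK cell antigens 5 of 18 were, CD7, CD8A, CD96, CD244 and CD247. The progenitor, erythroid and megakaryocytic antigens had 4 of 14, CD34, CD58, CD151 and CD320, and the myeloid and dendritic cell antigens 4 of 22, CD1D, CD93, CD300A and CD302. CD52 and CD53 made 2 of 4 antigens shared by many leukocytes, and CD82 and CD276 made 2 of 8 broadly expressed ones. A peak in 1 or 2 NTC libraries was called at 5 more of the progenitor, erythroid and megakaryocytic antigens, among them CD59 and CD164. It was called at 1 more B cell, 1 T and NK cell, 1 leukocyte-shared and 1 broad antigen, and at 0 myeloid and dendritic cell antigens. The lists differ in size and no difference between them was tested.

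**Figure D1:**
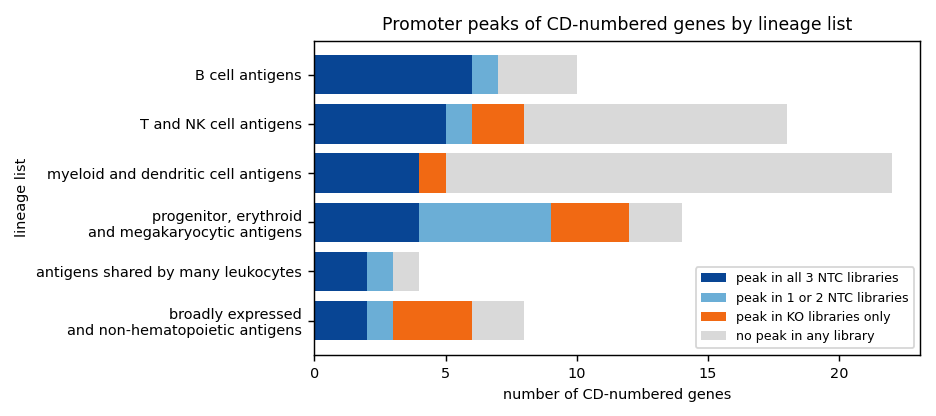
Number of CD-numbered genes (horizontal axis) in each lineage list (vertical axis), divided by where promoter peaks were called: all 3 NTC libraries, some NTC libraries, KO libraries only, or none. B cell antigens have 6 of 10 genes marked in all 3 NTC libraries, while 17 of 22 myeloid and dendritic cell antigens have no peak in any library.

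By protein family, 4 of 7 tetraspanins were marked in all 3 NTC libraries (CD37, CD53, CD82 and CD151), membrane proteins that organise other receptors. The antigen receptor chains had 2 of 6, CD247, the zeta chain of the T cell receptor complex, and CD79B, the beta signalling chain of the B cell receptor. Their partners CD3D, CD3E, CD3G and CD79A had no peak in any library. Among the lipid-presenting CD1 proteins CD1D alone was marked, and CD1A, CD1B, CD1C and CD1E had no peak. None of the 3 complement regulators was marked in all NTC libraries: CD59, the inhibitor of the membrane attack complex, was marked in 2, and CD46 and CD55 in none.

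The 36 genes without a peak in any library were CD1A, CD1B, CD1C, CD1E, CD2, CD3D, CD3E, CD3G, CD4, CD5, CD5L, CD8B, CD9, CD14, CD22, CD27, CD28, CD36, CD48, CD68, CD79A, CD80, CD83, CD86, CD101, CD160, CD163, CD177, CD180, CD200, CD207, CD209, CD248, CD300C, CD300E and CD300H. They include the coreceptor CD4, the monocyte antigen CD14, the macrophage scavenger receptor CD163 and the T cell costimulator CD28. From the progenitor, erythroid and megakaryocytic list CD9 and CD36 were among them.

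The promoters marked in NTC were richer in CG than those without a peak in any library, though poorer than NTC-marked promoters in general. In 300 bases around the start, 250 before to 50 after, the ratio of observed to expected CG had a median of 0.499 over the 23 NTC-marked genes and of 0.205 over the 36 without a peak, against 0.833 and 0.341 for all genes in the same states. The 6 genes with peaks in both METTL3-KO libraries and none in NTC had a median of 0.709. At the outermost start of each gene the 23 had a median of 0.344. With the start nearest the peak, the range over the 23 was wide, from 0.122 at CD37 to 1.12 at CD302. Of 3 motifs searched on both strands, AGATAA or TGATAA, bound by GATA factors, was in 1 of the 23 windows. That was 4.35%, beside 7.51% of all NTC-marked genes. The motif was in 13 of 77 (16.9%) and in 12.6% of all promoter windows. CCNCNCCC, bound by KLF1, was in 17 of the 23 (73.9%, beside 73.5% of all NTC-marked genes), 44 of 77 (57.1%) and 64.9% of all. CCGGAAGT, bound by ETS factors, was in none of the 77, in 8.12% of all NTC-marked genes and in 5.23% of all.

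Shown here are the 200 bases before the outermost start of 5 genes on which the results below turn, on hg19 and in the direction of the gene, with each CG in capitals. CD37 and CD72 kept a small peak in METTL3-KO, CD34 and CD244 kept none, and CD274 had a peak only in KO libraries. They lie at chr19:49838228-49838427 (plus strand, CD37), chr9:35646808-35647007 (minus, CD72), chr1:208084748-208084947 (minus, CD34), chr1:160832678-160832877 (minus, CD244) and chr9:5450303-5450502 (plus, CD274).
CD37: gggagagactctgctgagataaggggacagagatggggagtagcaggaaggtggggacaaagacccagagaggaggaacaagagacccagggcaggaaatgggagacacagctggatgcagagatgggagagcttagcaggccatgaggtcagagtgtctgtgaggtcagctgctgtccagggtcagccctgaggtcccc
CD72: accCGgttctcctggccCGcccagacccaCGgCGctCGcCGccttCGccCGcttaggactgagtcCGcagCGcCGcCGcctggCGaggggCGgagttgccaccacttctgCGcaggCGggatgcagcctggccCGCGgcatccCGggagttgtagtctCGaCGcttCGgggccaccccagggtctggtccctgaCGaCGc
CD34: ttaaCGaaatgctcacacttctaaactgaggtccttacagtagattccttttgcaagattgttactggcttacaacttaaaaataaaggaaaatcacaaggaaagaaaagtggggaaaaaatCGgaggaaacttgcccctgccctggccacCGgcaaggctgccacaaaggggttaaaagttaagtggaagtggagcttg
CD244: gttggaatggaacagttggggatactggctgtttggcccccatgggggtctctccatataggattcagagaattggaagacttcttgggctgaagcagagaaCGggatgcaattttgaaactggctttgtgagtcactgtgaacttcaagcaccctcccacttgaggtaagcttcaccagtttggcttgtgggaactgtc
CD274: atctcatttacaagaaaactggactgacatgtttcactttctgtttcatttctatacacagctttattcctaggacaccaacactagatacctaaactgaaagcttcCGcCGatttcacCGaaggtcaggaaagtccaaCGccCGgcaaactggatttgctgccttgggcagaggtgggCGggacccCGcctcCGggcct
The windows hold 0 CG in CD37, 24 in CD72, 3 in CD34, 1 in CD244 and 8 in CD274. CD37 has 1 match to AGATAA, 184 bases before its start. CD37 and CD72, with no CG and the most CG of the 5, had similar promoter signals in NTC.

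At most of the marked genes the start itself lay in the peak, but often not the outermost one. A start was inside the strongest NTC peak at 21 of the 23 genes, and at CD93 and CD302 it was 9 and 38 bp outside. The marked start was more than 1 kb from the outermost start at 7 genes, as 249478 bp away at CD96, 63139 bp at CD247, 12964 bp at CD70, 2865 bp at CD1D, 1995 bp at CD53 and 1174 bp at CD82. At 3 genes the peak was also within 1 kb of a start of another protein-coding gene, at CD52 that of UBXN11 and at CD79B that of an unnamed gene, so that the mark cannot be assigned to 1 gene.

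The KO groups had lost the peak at nearly all of these promoters. METTL3-KO 1 and 2 had a peak at 12 and 14 of the 77 genes (15.6% and 18.2%), METTL14-KO at 4 and 4 (5.19% each) and WTAP-KO at 3 and 3 (3.90% each). Over all genes the shares were 34.6% and 33.5% in METTL3-KO, 21.2% and 13.2% in METTL14-KO, and 11.4% and 12.9% in WTAP-KO.

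Of the 23 NTC-marked genes, 20 (87.0%) were without a peak in METTL3-KO 1 and 2 alike, as were 46.3% of all 8495 such genes. METTL14-KO lacked a peak at 22 (95.7%), against 73.3% of genes. WTAP-KO lacked one at all 23, against 84.9%. At 19 of the 23 (82.6%) no KO library had a peak, against 45.8%. The exceptions were CD37, CD40 and CD72 in METTL3-KO and CD320 in METTL14-KO. The shares beside all genes are descriptions, and the difference from all genes was not tested.

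**Figure D2:**
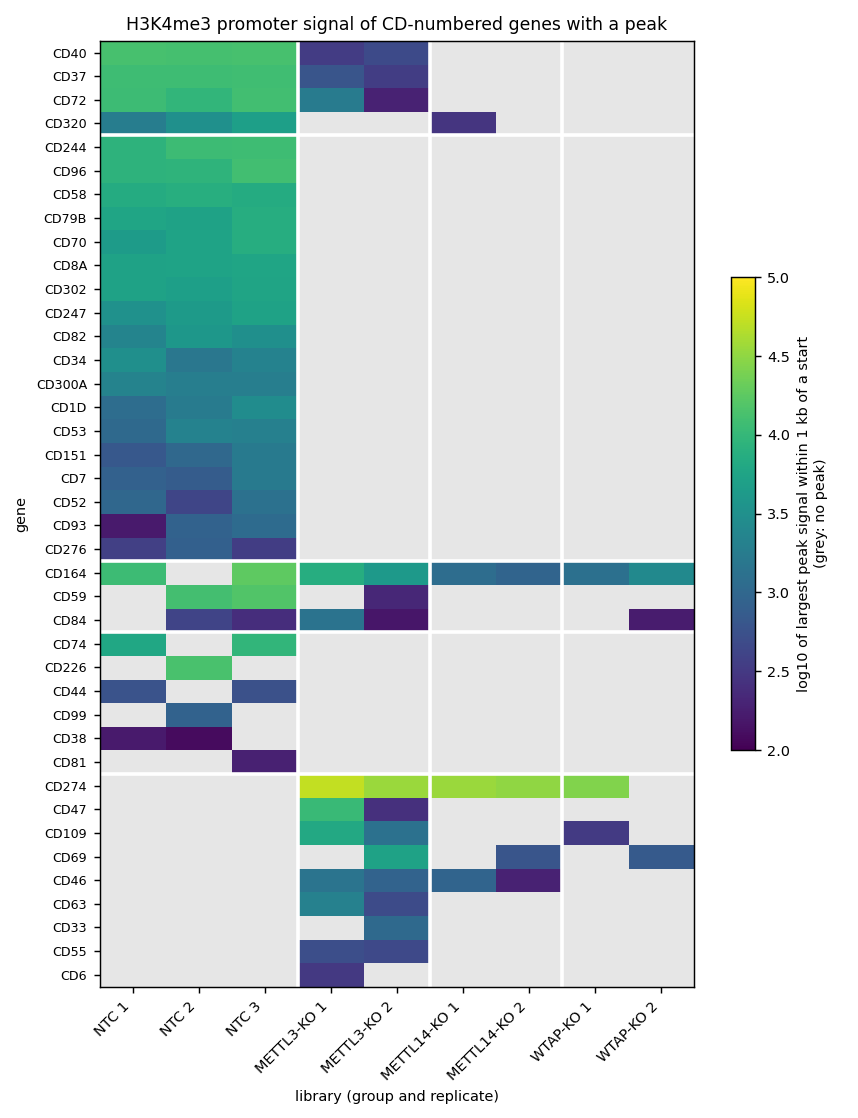
Promoter signal (colour, log10 of the strongest peak within 1 kb of a start; grey where no peak was called) of 40 CD-numbered genes with a peak (rows) in each of the 9 libraries (columns). The genes marked in all 3 NTC libraries are nearly all grey in the KO columns, and CD274 is among the brightest in 5 of 6 KO libraries.

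Promoter signal was also compared with limma on log2(signal + 30.1), fitted over the 12036 genes with a peak in at least 2 libraries, with Benjamini-Hochberg adjustment over all of them and a threshold of 0.05. Of the 77 genes 36 could be tested, and a gene that entered through the peaks of 1 group alone had to be higher there: those with NTC peaks only had to be lower in KO, and CD47, CD55 and CD63, with peaks in the METTL3-KO libraries only, had to be higher in METTL3-KO. For METTL3-KO against NTC 23 were lower, beside 60.9% of all genes tested, and 6 higher, beside 14%. For METTL14-KO 23 were lower (68.8% of all genes) and 2 higher (8.38%), and for WTAP-KO 23 were lower (69.7%) and 0 higher (6.81%). In each of these the 23 lower genes were those marked in all 3 NTC libraries. The split depended on the scaling: with libraries centred on genes marked in all 9, METTL14-KO had 20 lower and 5 higher and WTAP-KO 20 lower and 6 higher genes. With the KO groups averaged, 26 were lower (73% of all genes), with CD38, CD44 and CD74 added, and 5 higher (14.3%). The median log2 difference for that mean was -5.51 over the 36 genes and -5.30 over all genes tested.

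The 3 CD-numbered genes with the highest mean NTC signal, CD40, CD37 and CD72, were B cell antigens, and they were also the 3 that kept a METTL3-KO peak. CD40, the TNF-receptor-family costimulator of B cells and dendritic cells, had signals of 13506, 12989 and 13386 in NTC, 341 and 470 in METTL3-KO, and no peak in METTL14-KO or WTAP-KO. The NTC mean was 13294 ± 270 (SD, n = 3), and METTL3-KO stood at 3.05% of it. METTL3-KO was below NTC by a log2 difference of -4.95 (SE 0.25, limma adjusted p = 3.18e-06), with no overlap. Its METTL3-KO peaks were also narrow, 277 and 162 bp beside 1406 to 1596 bp in NTC.

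CD37, a tetraspanin of mature B cells, gave 11764, 11778 and 11964 in NTC and 615 and 346 in METTL3-KO, 4.06% of the NTC mean. The log2 difference was -4.59 (SE 0.30, limma adjusted p = 1.23e-05). CD72, an inhibitory coreceptor of B cells, gave 11362, 9558 and 12318 in NTC and 1756 and 191 in METTL3-KO. Its METTL3-KO libraries lay apart from each other by far more than those of CD37 and CD40, and both lay below every NTC library (log2 difference -4.14, SE 0.82, limma adjusted p = 0.00362). CD37 and CD72 had no peak in METTL14-KO or WTAP-KO either.

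The other B cell antigens had no KO peak. CD79B gave 5845, 5301 and 7327 in NTC, and CD70, the ligand of CD27, gave 4487, 5535 and 7402. For the 6 B cell antigens the limma adjusted p for the mean of the KO groups ran from 1.66e-08 at CD79B to 5.27e-05 at CD72. Those without a KO peak entered the fit through NTC peaks alone, so that their direction was fixed by the filter. PAX5, the B cell transcription factor, was marked in all 3 NTC libraries too and in no KO library. Where a KO group has no peak the fitted difference depends on the value added before the log, so no fold is given.

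**Figure D3:**
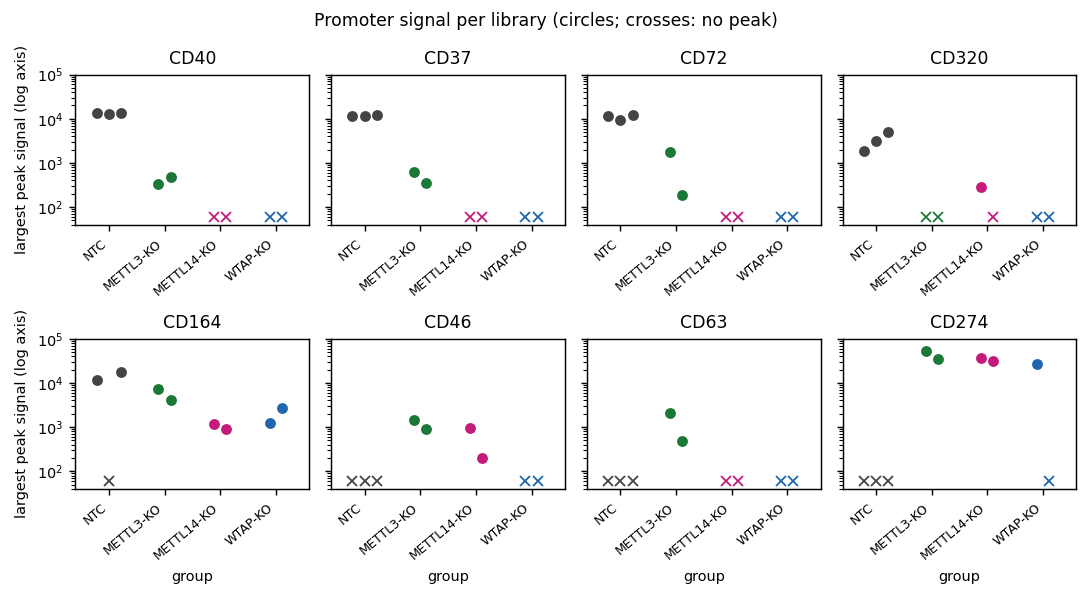
Promoter signal per library on a log axis for 8 CD-numbered genes by group; circles are libraries with a peak, and crosses at the foot of the axis are libraries without one. CD40, CD37 and CD72 keep METTL3-KO signals far below NTC, CD164 has a peak in every KO library, and CD46, CD63 and CD274 have circles in KO groups and crosses in all 3 NTC libraries.

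The 5 NTC-marked T and NK cell antigens had no peak in any of the 6 KO libraries. CD244, a SLAM-family receptor of NK cells that binds CD48, was the strongest, with 8777, 11358 and 11837 in NTC. CD96, an NK and T cell receptor for the poliovirus receptor, gave 8589, 8854 and 12514. CD8A, the alpha chain of the coreceptor for MHC class I, gave 5340, 5558 and 5848, while CD8B had no peak in any library. CD247 gave 3253, 4298 and 5373, and CD7, an antigen of T and NK cells and early progenitors, gave 861, 745 and 1694. For these 5 genes the limma adjusted p for the mean of the KO groups ran from 1.26e-08 at CD8A to 2.57e-06 at CD7. All 5 entered the fit through NTC peaks alone, so that their direction was fixed by the filter.

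Among myeloid and dendritic cell antigens, CD302, a C-type lectin receptor, had 5396, 4896 and 5617 in NTC. CD300A, an inhibitory receptor, had 2224, 1943 and 1937, and CD1D, which presents lipids to NKT cells, had 1174, 1752 and 2880. The 3 NTC libraries were close at CD302 and CD300A and more than a factor of 2 apart at CD1D. CD93, a C-type-lectin-domain protein of myeloid cells and progenitors, had 165, 870 and 1116. No KO library had a peak at any of the 4 (limma adjusted p from 1.26e-08 at CD302 to 0.000402 at CD93 for the mean of the KO groups). Having NTC peaks alone, the 4 had a direction fixed by the filter. The call for CD93 was lost when libraries were centred on genes marked in all 9 libraries (log2 difference -1.44, limma adjusted p = 0.0609).

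Progenitor, erythroid and megakaryocytic antigens included genes with peaks in NTC only, in both NTC and KO libraries, and in KO libraries only. CD34, the sialomucin of hematopoietic progenitors, had 3151, 1566 and 2142 in NTC and no KO peak. CD58, the adhesion ligand of CD2, had 6939, 7690 and 7063, and CD151, a tetraspanin with the Raph blood group antigen, had 670, 1043 and 1680, again with no KO peak. CD320, the receptor for transcobalamin-bound vitamin B12, had 1848, 3178 and 4949 in NTC and 288 in METTL14-KO 1 only. In METTL14-KO it was lower than in NTC (log2 difference -4.99, SE 0.96, limma adjusted p = 0.00288). The limma adjusted p for the mean of the KO groups ran from 1.26e-08 at CD58 to 0.000260 at CD320. CD34, CD58 and CD151 entered the fit through NTC peaks alone, so that their direction was fixed by the filter.

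Of the leukocyte-shared and broad antigens, CD53, a leukocyte tetraspanin, had 1066, 2112 and 2037 in NTC, and CD52, a small glycoprotein of lymphocytes and monocytes, had 995, 420 and 1318. CD82, a tetraspanin known as a metastasis suppressor, had 2286, 3848 and 3086, and CD276 (B7-H3) had 370, 827 and 355. All 4 had no KO peak, with limma adjusted p from 8.58e-08 at CD82 to 1.52e-05 at CD52 for the mean of the KO groups. Their direction was likewise fixed by the filter, through which NTC peaks alone brought them.

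Genes with weak NTC promoters lost the peak more often over the whole genome, and the CD-numbered genes were on the weak side, with a median NTC signal of 3325 over the 23 against 5148 over all 8495 genes. The 8495 genes were therefore split into deciles of mean NTC signal. In deciles 1 to 5 all 13 CD-numbered genes lacked a METTL3-KO peak, beside 74.9% of genes. In deciles 6 to 8 all 6 did, CD8A, CD58, CD70, CD79B, CD96 and CD302, beside 25.4% of genes. In deciles 9 and 10 CD244 lacked one and CD37, CD40 and CD72 did not, beside 6.12% of genes. In the same 3 spans METTL14-KO lacked a peak at 12, 6 and 4 CD-numbered genes, beside 92.5%, 67.9% and 33.4% of genes. WTAP-KO lacked one at 13, 6 and 4, beside 96.9%, 87.9% and 50.4%. These shares were not tested.

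**Figure D4:**
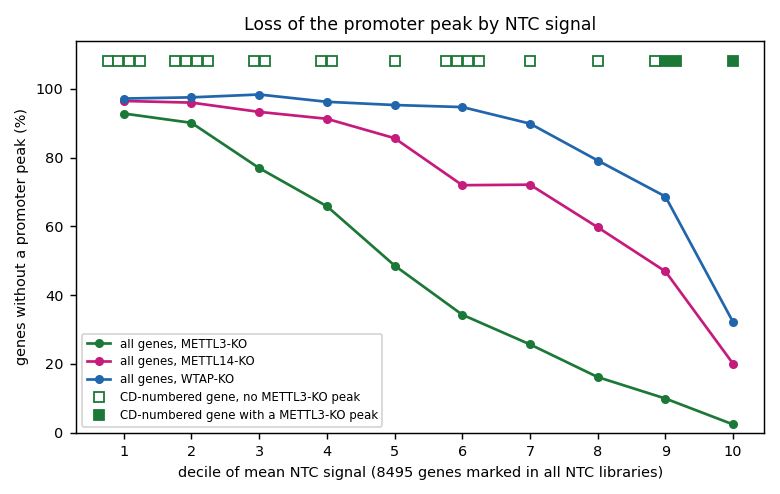
Share of NTC-marked genes without a promoter peak in each KO group (vertical axis, %) by decile of mean NTC signal (horizontal axis); lines are all 8495 genes, and squares along the top are the 23 CD-numbered genes, filled where METTL3-KO had a peak. The METTL3-KO line falls from 92.8% in decile 1 to 2.35% in decile 10, and the filled squares are only in deciles 9 and 10.

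The opposite pattern, peaks in KO libraries and none in NTC, was found at 9 genes. In both METTL3-KO libraries this held for 6 of 77 genes (7.79%), CD46, CD47, CD55, CD63, CD109 and CD274, beside 7.95% of all genes. In both METTL14-KO libraries it held for CD46 and CD274 (2.60%, beside 4.87% of genes), and in both WTAP-KO libraries for 0 genes, beside 4.19%. The shares lay near or below those of all genes.

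CD274 (PD-L1, the ligand of PD-1) had signals of 52454 and 35145 in METTL3-KO, 35839 and 31872 in METTL14-KO, 26912 in WTAP-KO 1, and no peak in WTAP-KO 2 or in any NTC library. Among all marked promoters it was the highest in METTL3-KO 1, of 6978 genes, and in WTAP-KO 1, of 2300. In METTL3-KO 2, METTL14-KO 1 and METTL14-KO 2 only 1, 4 and 5 genes were higher. The call was higher in METTL3-KO (limma adjusted p = 0.00921) and METTL14-KO (0.00994) and missed the threshold in WTAP-KO (0.123), where the libraries disagreed. CD274 entered the fit through KO peaks alone, so that its direction against NTC was fixed by the filter.

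The CD274 peaks in KO spanned the start and were 1803 to 1954 bp wide, near the limit of 2000 bp, as at chr9:5449681-5451634 in METTL3-KO 1. NTC 1 and NTC 2 had a peak 1660 and 1678 bp from the nearest start, inside the gene, and NTC 3 had none closer than 36931 bp. With a window of 3 kb the METTL3-KO call was lost (limma adjusted p = 0.265). Whether a block wider than 2000 bp at this start was left out of the NTC lists or of WTAP-KO 2 was not tested.

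CD46, a complement cofactor, had 1410 and 900 in METTL3-KO, 936 and 196 in METTL14-KO and no peak in WTAP-KO. It was higher than NTC in METTL3-KO (limma adjusted p = 0.000194) and METTL14-KO (0.000740), and the nearest NTC peak was 42986 to 43027 bp from a start. As CD46 entered the fit through KO peaks alone, that direction was fixed by the filter. CD55, the decay-accelerating factor, another brake on complement, had 524 and 460 in METTL3-KO and no promoter peak elsewhere, with the nearest NTC peak 4128 bp from a start in NTC 1 and over 100 kb away in NTC 2 and NTC 3. CD59 had 12593 and 15452 in NTC 2 and NTC 3, none in NTC 1, 216 in METTL3-KO 2 and none in the other KO libraries. It passed no contrast (limma adjusted p = 0.0511 for the mean of the KO groups, and 0.000281 without NTC 1).

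CD63, a tetraspanin of lysosomes and platelet granules, had 2063 and 478 in METTL3-KO only, and its nearest NTC peaks were 7663 to 8251 bp away. CD109, a GPI-anchored protein of platelets and progenitors, had 6462 and 1331 in METTL3-KO (limma adjusted p = 0.00153) and 320 in WTAP-KO 1, with NTC peaks 3365, 3240 and 8071 bp from a start in NTC 1, 2 and 3. It too entered the fit through KO peaks alone, which fixed its direction against NTC. CD47, the integrin-associated protein that binds SIRPA, had 10694 and 260 in METTL3-KO. The METTL3-KO libraries thus lay far apart at CD47, while those of CD55 were close. METTL14-KO 1, METTL14-KO 2 and WTAP-KO 2 had CD47 peaks just outside the window, 1267, 1101 and 1333 bp from a start, whereas the nearest NTC peaks were 7296 to 7338 bp away.

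Of the other genes in this class, CD69, the early activation antigen of lymphocytes, had 5416 in METTL3-KO 2, 620 in METTL14-KO 2 and 714 in WTAP-KO 2. The library numbered 1 of each KO group had no CD69 peak within 1 kb. METTL14-KO 1 and WTAP-KO 1 had CD69 peaks outside the window, 1686 and 1867 bp from the start. The nearest peak was 10035 bp away in METTL3-KO 1 and 2201 to 3674 bp away in NTC. No contrast passed for CD69 (limma adjusted p = 0.230 for the mean of the KO groups). CD33, the myeloid sialic-acid-binding lectin, had 1055 in METTL3-KO 2 only, and CD6, a T cell protein that binds ALCAM, had 318 in METTL3-KO 1 only. For the mean of the KO groups the 5 genes called higher were CD46, CD55, CD63, CD109 and CD274, which all entered the fit through KO peaks alone, and CD47 missed the threshold (0.123). The call for CD109 was lost without any 1 of the 3 NTC libraries (limma adjusted p = 0.0574 to 0.0584).

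**Figure D5:**
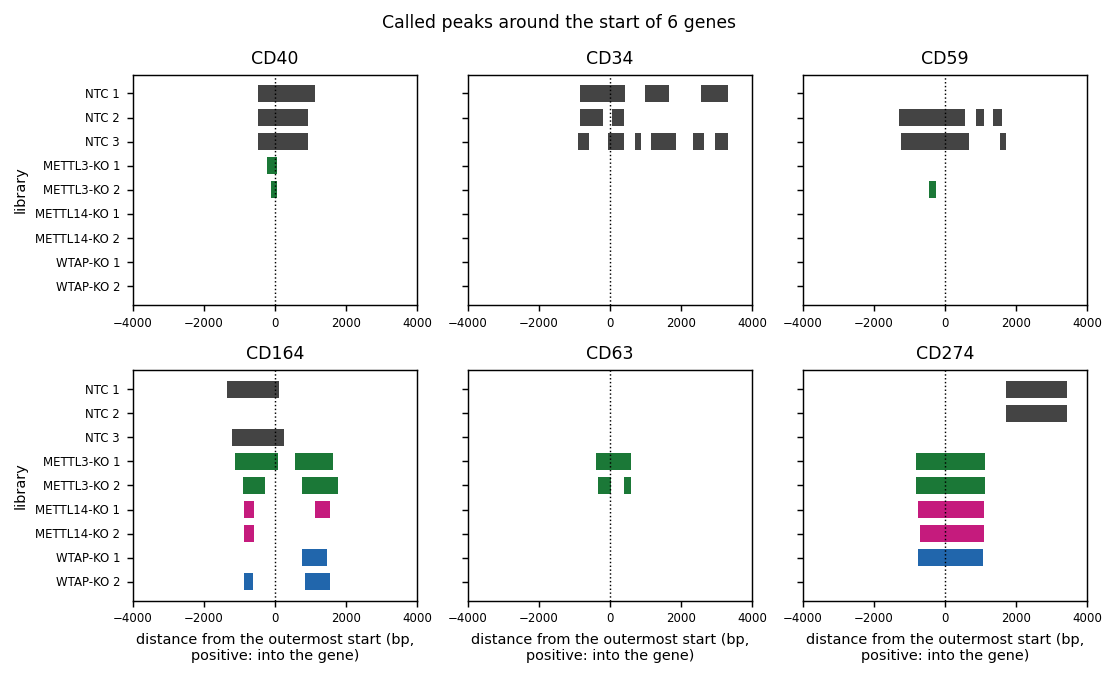
Called peaks (bars) in each of the 9 libraries (vertical axis) within 4000 bp of the outermost start of 6 CD-numbered genes (horizontal axis, bp, positive into the gene). CD40 has wide NTC bars over the start, CD34 has several shorter ones, CD59 has wide ones in NTC 2 and NTC 3, CD164 has KO bars on 1 or both sides of the start, and CD63 and CD274 have bars over the start in KO libraries alone.

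CD164, a sialomucin of hematopoietic progenitors, was the 1 CD-numbered gene with a peak in all 6 KO libraries. It had 11403 and 17958 in NTC 1 and NTC 3 and none in NTC 2, then 7410 and 4130 in METTL3-KO, 1178 and 914 in METTL14-KO, and 1268 and 2653 in WTAP-KO. No contrast with NTC passed (limma adjusted p = 0.612 for METTL3-KO and 0.906 for the mean of the KO groups). Without NTC 2 the mean of the KO groups was lower by a log2 difference of -2.69 (limma adjusted p = 0.00213), so that this 1 library decides the call. The NTC peaks crossed the start and were 1455 and 1468 bp wide. The strongest peaks were on the gene side of the outermost start in METTL3-KO and WTAP-KO and upstream of it in METTL14-KO.

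The remaining genes were marked in 1 or 2 NTC libraries. CD74, the invariant chain of MHC class II, had 6146 and 9372 in NTC 1 and NTC 3 and none in NTC 2, CD44, the hyaluronan receptor, had 592 and 557 in the same libraries, and CD38, an NAD glycohydrolase of progenitors and plasma cells, had 163 and 121 in NTC 1 and NTC 2. None had a KO peak, so that without centring their direction in the fit was fixed by the filter. They passed for the mean of the KO groups only narrowly (limma adjusted p = 0.0336, 0.0343 and 0.0414), and the call was lost without any 1 of 6 KO libraries and, at CD74 and CD44, under centring. At CD38 centring turned the difference to 1.17. CD84, a SLAM-family receptor of leukocytes and platelets, had 412 and 245 in NTC 2 and NTC 3, 1398 and 151 in METTL3-KO and 171 in WTAP-KO 2, and passed no contrast (limma adjusted p = 0.678 for the mean). CD226 had 13732 in NTC 2 alone, CD99 had 868 in NTC 2 alone and CD81 had 190 in NTC 3 alone. CD99 lies in a region that both sex chromosomes hold, and the copy on X was used.

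METTL3-KO was set against METTL14-KO and WTAP-KO averaged, to test whether the KO groups differed. It was higher at 8 genes, beside 29.5% of all genes tested, and lower at 0, beside 0.582%. The 8 were CD37, CD40 and CD72, where METTL3-KO kept a small peak, and CD46, CD47, CD55, CD63 and CD109, where it had peaks and NTC had none. CD47, CD55 and CD63 entered the fit through METTL3-KO peaks alone, so that their direction was fixed by the filter. At the other 5 the limma adjusted p ran from 6.23e-05 at CD40 to 0.00764 at CD109. With a peak required in at least 3 libraries 5 genes were called, and with libraries centred on genes marked in all 9 it was 8 higher and 19 lower. The median log2 difference was 0 over the 36 genes, most of which had no peak in any of these groups, and 1.72 over all genes. The count fell to 3 without METTL3-KO 1, to 5 without METTL3-KO 2 and to 0 over peaks no weaker than the median NTC peak, and with a 3 kb window CD47 no longer passed (0.192).

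The strongest promoter peaks of the CD-numbered genes had a median width of 1118 bp over 84 peaks in NTC and of 380 bp over 40 peaks in the KO libraries, which are in part those of other genes. By group the KO medians were 404.5 bp over 26 peaks in METTL3-KO, 275.5 bp over 8 in METTL14-KO and 538 bp over 6 in WTAP-KO. Widths over 1500 bp were found for 23.8% of these peaks in NTC and for 11.5% in METTL3-KO, 25% in METTL14-KO and 16.7% in WTAP-KO, and 5 of the 6 such KO peaks were those of CD274.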

How the data were processed

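H3K4me3 CUT&RUN libraries of HEL cells were grouped by their labels. The authors aligned paired-end reads to hg19 with Bowtie and to yeast (sacCer3), calibrated each library to the yeast spike-in, removed duplicates with Picard and called peaks in each library separately by height. The authors deposited, per library, a list of peaks with a signal in calibrated coverage units, which is not a count and not linear in fragments. Starts were read as counted from 0 and are printed from 1. Starts of genes came from GENCODE v44 lifted to hg19, symbols included, and sequences from the hg19 genome. The second copies of genes that both sex chromosomes hold were left out.

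The largest promoter signal within 1 kb was compared with limma 3.58.1 (R 4.3.3, trend option, Benjamini-Hochberg adjustment) on log2(signal + 30.1), the smallest promoter signal, in 1 model with 4 groups, a scale that understates changes of weak promoters. The step was tested on simulated data. Tables were made with Python 3.11.15 and pandas 2.3.3. The lists give no depth, and precision is limited by the 9 libraries. No batch is given in the labels.

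Every gene with peaks in at least 2 libraries was to be named with values, those with a peak in 1 library with that value, and those with none by name, but some items are not reported here. The genes, lineage lists and tests were chosen with earlier results of these data known. Alternatives were the pseudocount, the filter, summed peaks, a 3 kb window, the outermost start, a higher peak threshold, centring, division by the step, a fit of only the groups compared, the replicate block and leaving out each library. Leaving out peaks shared with another coding start was chosen after seeing the data.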

Additional observations from a re-analysis of the deposited data

Results flagged for a closer look

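At 8 genes the promoter signal differed between KO groups in a test of the difference itself, METTL3-KO against METTL14-KO and WTAP-KO averaged, with limma and Benjamini-Hochberg adjustment over all 12036 genes tested. METTL3-KO was the higher at all 8, of 36 CD-numbered genes tested, beside 29.5% of all genes tested. The count was 3 without METTL3-KO 1, 5 without METTL3-KO 2 and 0 over peaks no weaker than the median NTC peak. Among genes that NTC cells marked, the log2 difference was 3.84 at CD40, 4.03 at CD37 and 4.38 at CD72, and METTL14-KO and WTAP-KO had no peak at any of them. Among genes that NTC cells did not mark, it was 3.29 at CD46, 4.11 at CD55, 5.10 at CD63, 5.74 at CD109 and 5.87 at CD47. CD46 had METTL14-KO peaks as well, CD109 had a peak in WTAP-KO 1, and CD47 had METTL14-KO and WTAP-KO 2 peaks just outside the 1 kb window. Both METTL3-KO libraries had a peak at all 8 genes. CD47, CD55 and CD63 entered the test through these 2 libraries alone, so that their direction was fixed by the filter on low values, and 5 genes were called where a peak in at least 3 libraries was required. These sizes depend on the value added before the log, since most libraries of the other groups had no peak. The smallest step between values was 0.461 and 1.07 in METTL3-KO and 0.320 to 0.440 in METTL14-KO and WTAP-KO, and the part of this in the difference was not tested.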

How the results depend on the processing

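Of 176 alternatives to the 12 counts and medians, 162 stayed within 1.5 times the reported value, and of 1105 alternatives to the 58 differences of single genes 1048 kept direction and call, 39 lost the call, 9 gained it and 9 turned the direction. Over peaks no weaker than the median NTC peak, of signal 2095, 12 CD-numbered genes were marked in all NTC libraries, and all 12 lacked a peak in METTL3-KO, in METTL14-KO, in WTAP-KO and in any KO library. The genes called there were 13 for METTL3-KO, 13 for METTL14-KO, 12 for WTAP-KO, 17 for the mean of the KO groups and 0 for METTL3-KO against the other KO groups, the last beside 8 in the main setting. That last count was 5 over genes with a peak in at least 3 libraries and 27 (19 lower, 8 higher) when libraries were centred on genes marked in all 9. Centring raised every log2 difference from NTC by 1.78 for METTL3-KO, 3.06 for METTL14-KO, 3.67 for WTAP-KO and 2.84 for their mean, and moved that between METTL3-KO and the other KO groups by -1.59. The genes called under it were 23 lower and 6 higher for METTL3-KO, 20 and 5 for METTL14-KO, 20 and 6 for WTAP-KO, and 22 and 7 for the mean of the KO groups.

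Leaving out each library gave 26 to 31 genes called for METTL3-KO, 25 to 28 for METTL14-KO, 23 to 26 for WTAP-KO, 26 to 30 for the mean of the KO groups and 3 to 9 for METTL3-KO against the other KO groups. It gave 23 to 26 genes marked in NTC, of which 20 to 22 lacked a peak in METTL3-KO, 22 to 24 in METTL14-KO, 23 to 25 in WTAP-KO and 19 to 21 in any KO library. With the 3 genes left out whose peak another coding start shares, 20 were marked and 17, 19, 20 and 16 lacked a peak, in the same order.

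For the mean of the KO groups, the log2 difference of CD164 turned from 0.28 to -0.64 with 10 times the pseudocount, to -1.16 over the stronger peaks and to -2.69 without NTC replicate 2, and leaving out other libraries gave up to 1.93. For METTL3-KO it turned from 1.60 to -0.11 over the stronger peaks, and leaving out each library gave -1.37 (without NTC replicate 2) to 3.25. CD84 turned from -0.54 to 2.30 under centring, 0.0057 after division by the step and 0.22 without NTC replicate 2 (down to -1.72 without other libraries), and CD38 turned from -1.67 to 1.17 under centring. The causes were not tested. CD63 lost its call for the mean of the KO groups with 10 times the pseudocount (limma adjusted p = 0.0715).

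Same-numbered libraries did not deviate together (mean r 0.0059 over 12 pairs, -0.058 to 0.095). The 2 libraries of a KO group deviate from their mean as mirror images, so the pairs are not independent and cannot exclude a pairing. The labels do not say whether the numbers pair libraries. With the replicate block, and NTC 3 left out of the counts of marked genes, 30 genes were called for METTL3-KO, 26 for METTL14-KO, 24 for WTAP-KO, 29 for the mean of the KO groups and 7 for METTL3-KO against the other KO groups, where CD47 dropped out (limma adjusted p = 0.0583). For the mean of the KO groups CD74 and CD44 dropped out (limma adjusted p = 0.135 and 0.136) and CD38 remained (0.000557). Then 24 genes were marked in NTC and 21, 23, 24 and 20 of them lacked a peak in METTL3-KO, METTL14-KO, WTAP-KO and any KO library. Depth could not be taken from the lists, so a missing call is not a missing mark.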

Other observations

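CD antigens that carry other symbols were looked at in the same way, from a list of 20. In all 3 NTC libraries 6 were marked, among them KEL (CD238), the Kell blood group protein, BSG (CD147), GP9 (CD42a) and GP1BA (CD42b) of the platelet receptor for von Willebrand factor, and ENG (CD105). None of the 6 had a peak in METTL14-KO or WTAP-KO, and 4 had none in METTL3-KO. Over all 8495 NTC-marked genes, 73.3% had none in METTL14-KO, 84.9% in WTAP-KO and 46.3% in METTL3-KO. The difference from all genes was not tested. BSG had 12948, 10158 and 12966 in NTC and 633 and 403 in METTL3-KO. PTPRC (CD45), SPN (CD43), MS4A1 (CD20), ITGAM (CD11b) and SLC4A1 (CD233) had no peak in any library.

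Red cell antigens among them had peaks in KO libraries. ICAM4 (CD242), the Landsteiner-Wiener blood group antigen, had no NTC peak and 2487 and 1170 in METTL3-KO, 1421 and 880 in METTL14-KO and 1024 in WTAP-KO 1. RHAG (CD241) had no NTC peak, 7601 in METTL14-KO 1, and 1327 and 3675 in WTAP-KO. These values were not tested.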
